A study of Mus musculus with 16 samples.

Results

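The genes described here encode ADAM proteins (a disintegrin and metalloproteinase), membrane-anchored proteases that cut other proteins at the cell surface. They were chosen by gene name and comprise Adam19, Adam8, Adam9, Adam10, Adam12, Adam15 and Adam17, 7 of the 35275 genes in the deposited count table. Adam19 was picked because it differed between genotypes in these same libraries, so all of its values are given as a description without a test, its TGF-β1 responses included, because they share libraries with that comparison. The other 6 were taken as family members. A filter on low counts kept 13080 genes in all and 6 of the 7 ADAM genes, with Adam12 below it.

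The 16 RNA sequencing libraries, in 4 groups of 4, came from macrophages cultured from tibial marrow of C57BL/6 mice. The first 2 groups came from Smad7 fl/fl mice, which carry floxed Smad7 alleles and no Cre, and their cells received either no treatment or 10 ng/ml TGF-β1 over 4 hours. The other 2 groups came from CAGGCre-ER;Smad7 fl/fl littermates, called KO below, again untreated or given the same dose of TGF-β1. Every mouse of both genotypes, the controls included, had received tamoxifen at 20 mg/kg for 5 days at 1 month of age and was killed 2 weeks later. The CAGG promoter drives Cre throughout the body, so deletion was not limited to macrophages. Cells were cultured in 15% serum with CSF-1, at 12 ng/ml during the first 24 hours and 120 ng/ml during the next 48 hours, and were kept without serum for about 12 hours before TGF-β1. Smad7 is an inhibitory Smad that is induced by TGF-β and dampens signalling from its receptors. The labels do not say whether the 4 libraries of a group came from separate mice or cultures, so p-values measure the spread between these libraries, which may be technical.

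ADAM proteins are made as inactive precursors whose prodomain is removed by furin-type proprotein convertases. The mature enzymes release the outer part of membrane proteins, a step called shedding, and their substrates include cytokines, growth factor precursors, receptors and adhesion molecules. In macrophages ADAM17 is best known for releasing tumour necrosis factor and ADAM10 for the first cut of Notch receptors and for releasing chemokines such as CXCL16.

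All 7 genes encode the zinc-binding motif of the metalloproteinase domain, and its coding sequence is shown because it marks them as the catalytic members of the family. Each coding sequence of the GENCODE M21 annotation (GRCm38) held this motif at a single place. The 33 bases below run 5′ to 3′ on the gene's strand, with the codons of the metal-binding histidines and the catalytic glutamate in capitals.
Adam19: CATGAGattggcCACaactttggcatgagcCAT
Adam8: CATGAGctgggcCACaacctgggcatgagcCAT
Adam12: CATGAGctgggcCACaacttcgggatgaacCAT
Adam9: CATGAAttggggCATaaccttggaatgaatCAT
Adam15: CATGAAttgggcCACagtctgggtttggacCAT
Adam10: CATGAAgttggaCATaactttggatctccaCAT
Adam17: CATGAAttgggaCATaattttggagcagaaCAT
These bases lie at chr11:46125050-46125082 (+) in exon 11 of Adam19, at chr7:139987893-139987925 (−) in exon 11 of Adam8 and at chr7:133961158-133961190 (−) in exon 11 of Adam12. Those of Adam9 lie at chr8:24990326-24990358 (−) and those of Adam15 at chr3:89344780-89344812 (−), both in exon 11, and those of Adam17 at chr12:21336732-21336764 (−) in exon 12. In Adam10 the site is split by an intron, and its bases fall in exons 9 and 10 between 70754296 and 70761585 on the + strand of chromosome 9. Adam19 shared 29 of the 33 bases with Adam8 and 28 with Adam12. Adam10 and Adam17 shared 26 with each other, while Adam10 shared 22 and Adam17 20 with Adam19. The genes did not fall into separate sets by this count: Adam9 shared 25 with Adam17 and 24 with Adam19, and Adam15 shared 22 with Adam19. The lowest identity, 19 of 33 bases, was found for Adam8 with Adam10, for Adam8 with Adam17 and for Adam10 with Adam15.

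Total counts ran from 16865591 to 23741079 per library. Macrophage markers were abundant in each library, with a summed level of 15167 to 23334 CPM (counts relative to the TMM-scaled library total) over the 6 of 7 listed markers found in the table, Csf1r, Cd68 and Lyz2 among them. Stromal markers summed to 0.910 to 7.98 CPM and T and NK cell markers to at most 0.382 CPM, with Cd3e and Ncr1 at 0. Erythroid and megakaryocyte markers summed to 36.8 to 144.7 CPM, of which Pf4 held 35.2 to 143.7 CPM. Endothelial markers reached at most 22.2 CPM and osteoclast markers at most 18.0 CPM, and the remaining lists stayed below these. None of the listed markers kept by the low-count filter passed the test for the TGF-β1 response in fl/fl cells, where 15.5% of all genes tested passed. The filter kept 6 macrophage markers but 1 of 8 stromal, 2 of 6 erythroid and megakaryocyte and 0 of 5 T and NK cell markers. Markers below it were not tested. In bulk RNA, fewer cells of a type and less RNA per cell cannot be told apart. Smad7 itself was at 3.89 to 6.03 CPM in untreated and 37.3 to 58.3 CPM in TGF-β1-treated fl/fl libraries, and at 10.3 to 19.7 CPM in treated KO libraries. Among untreated KO libraries it was at 1.28 to 2.00 CPM in replicates 2 to 4 and at 5.87 CPM in replicate 1. That value lies inside the fl/fl untreated range and below the treated ranges of both genotypes, and why replicate 1 departs was not tested. The same library, labelled KO untreated replicate 1, held 319.9 CPM of Pmepa1, a gene induced by TGF-β, against 1.70 to 3.09 CPM in the other 7 untreated and 292.2 to 419.2 CPM in the 8 treated libraries. The library labelled fl/fl TGF-β1 replicate 4 had 14915 detected genes against 15834 to 17195 in the other 15. On principal component 2 of log2 CPM, an axis of spread between libraries, it lay at -78.1, against -19.5 to 20.3 in the other 15. The main results that rest on the KO untreated group are given with replicate 1 and again without it.

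Per unit of gene length, Adam8 was the most abundant of these transcripts and Adam19 the scarcest of the 6 that passed the filter. Levels between genes are given as FPKM, which divides the count by the length of the gene and the total of the library. In fl/fl untreated cells Adam8 was at 238 ± 21.7 FPKM (SD, n = 4), Adam17 at 130 ± 15.4, Adam9 at 77.8 ± 2.76, Adam15 at 66.1 ± 3.86, Adam10 at 46.6 ± 1.90 and Adam19 at 4.76 ± 0.890. The ranges of neighbours in this order did not overlap. With TGF-β1 the order of the middle genes was different: Adam15 was at 92.3 ± 8.81 FPKM, Adam9 at 79.4 ± 4.39 and Adam10 at 72.0 ± 16.1 (SD, n = 4), and the ranges of Adam9 and Adam10 overlapped. Without fl/fl TGF-β1 replicate 4, Adam10 was at 79.99 ± 2.48 FPKM (SD, n = 3). Averaged over all 16 libraries, Adam8 stood at percentile 98.5 of the 13080 genes tested, Adam17 at 96.6, Adam9 at 94.4, Adam15 at 94.3, Adam10 at 93.1 and Adam19 at 29.9. The FPKM of the 7 genes summed to 563 ± 15.0 and 628 ± 23.7 in untreated and treated fl/fl cells, and to 546 ± 29.4 and 600.0 ± 25.1 in untreated and treated KO cells (SD, n = 4), or 532 ± 8.28 (SD, n = 3) in untreated KO cells without replicate 1. Adam8 and Adam17 made up most of that sum in each group, with mean shares of 38.6% to 42.9% and 17.9% to 23.2%, while Adam19 held 0.846% in fl/fl untreated and 0.155% in KO TGF-β1 cells.

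**Figure D1:**
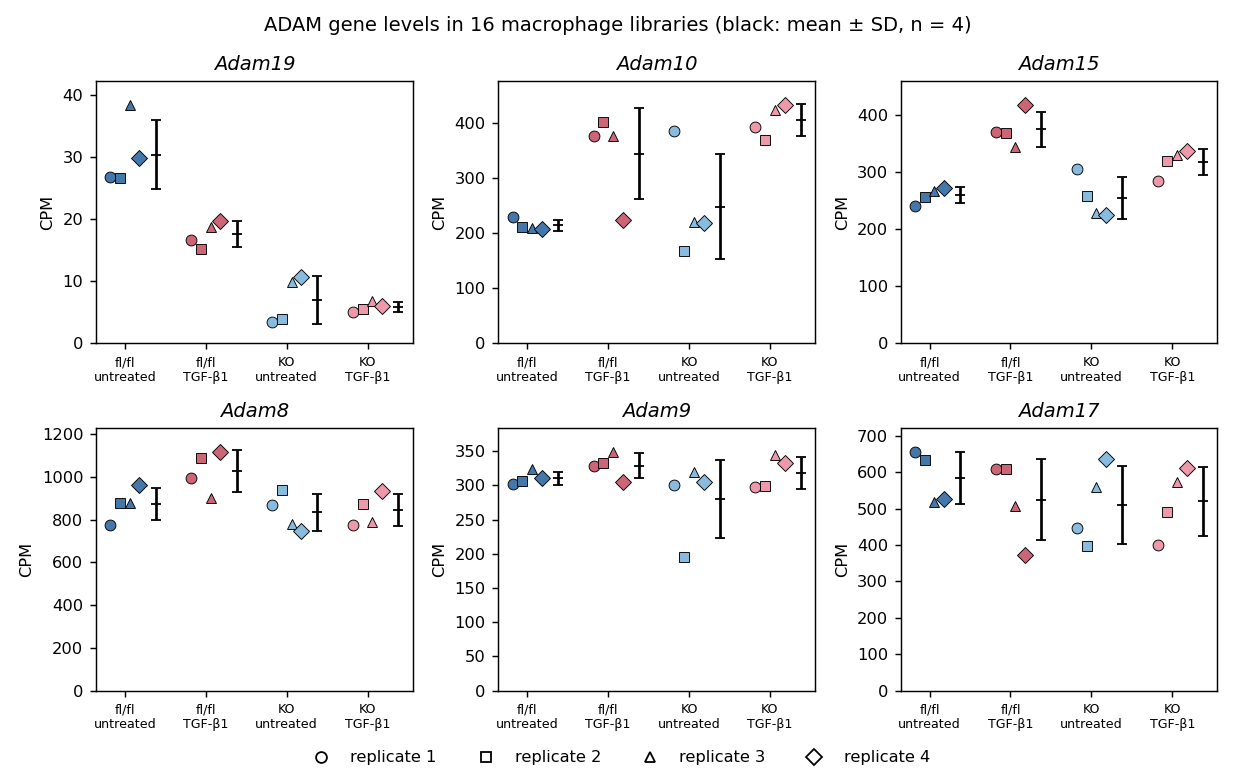
CPM of the 6 ADAM genes that passed the filter in each of the 16 libraries (points, shaped by replicate number) with the mean and SD of the 4 libraries of a group in black, each panel on its own axis from 0. Adam19 is lower in the KO libraries, Adam10 and Adam15 are higher with TGF-β1, and KO untreated replicate 1 and fl/fl TGF-β1 replicate 4 depart from their groups for Adam10.

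Adam19, also known as meltrin beta, is a protease first described in muscle cells and is needed for heart development. Its gene (ENSMUSG00000011256) lies at chr11:46055992-46147343 on the + strand (mm10). In fl/fl untreated replicates 1 to 4 it was at 26.8, 26.6, 38.4 and 29.8 CPM, from 448, 456, 884 and 709 counts. In KO untreated replicates 1 to 4 it was at 3.49, 3.85, 9.87 and 10.7 CPM, from 73, 75, 223 and 204 counts. Every KO library lay below every fl/fl library, and within the KO untreated group replicates 1 and 2 were low and replicates 3 and 4 higher. The group means were 30.4 ± 5.53 and 6.98 ± 3.84 CPM (SD, n = 4), a difference of -2.12 on the log2 scale, or 4.35-fold lower in KO. Without KO untreated replicate 1 the KO mean was 8.15 ± 3.74 CPM (SD, n = 3) and the difference -1.91. In this comparison the KO group was below the fl/fl group without overlap for 4.11% of the 13080 genes tested. Nothing is read from Adam19 being among them, since it was picked for its genotype difference.

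The genotype difference of Adam19 was also present with TGF-β1. The fl/fl TGF-β1 replicates 1 to 4 held 16.6, 15.2, 18.7 and 19.8 CPM and the KO TGF-β1 replicates 5.00, 5.59, 6.86 and 6.09 CPM. The 2 treated groups did not overlap, as was the case in this direction for 2.61% of the genes tested. Nothing is read from this either, since Adam19 was picked for its genotype difference. The means of the treated groups were 17.5 ± 2.08 and 5.88 ± 0.785 CPM (SD, n = 4), a log2 difference of -1.58, or 2.98-fold lower in KO, also given without a test. Leaving out any of the 16 libraries left the log2 difference between -2.41 and -1.91 without and between -1.66 and -1.50 with TGF-β1.

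In fl/fl cells the mean of Adam19 was 30.4 CPM without and 17.5 CPM with TGF-β1, and the treated and untreated libraries did not overlap. In this comparison the groups did not overlap for 23.9% of the 13080 genes tested, and nothing is read from Adam19 being among them. The difference of Adam19 was -0.79 on the log2 scale and lay between -0.86 and -0.66 when any 1 library was left out. In KO cells the means were 6.98 and 5.88 CPM, a log2 difference of -0.25, and the groups overlapped. Without KO untreated replicate 1 that difference was -0.45, and without KO untreated replicate 4 it was 0.0499, so its sign depended on the library left out. These responses carry no test, since their libraries are also those of the genotype difference that chose Adam19. Ordered by mean, the levels of Adam19 ran from fl/fl untreated through fl/fl TGF-β1 to KO untreated and KO TGF-β1, and only the last 2 groups overlapped.

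Adam12, or meltrin alpha, is closely related to Adam19 and is typical of mesenchymal cells. Its gene (ENSMUSG00000054555, chr7:133883199-134232146, −) had 2 counts in all, 1 each in fl/fl untreated replicates 2 and 4, and 0 in the other 14 libraries. With 3 counts taken as the limit that a count of 0 allows, no difference between groups was detectable at this depth. Of the stromal markers, Col1a1 reached at most 0.269 CPM and Pdgfrb ran from 0.161 to 6.88 CPM.

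In fl/fl cells TGF-β1 for 4 hours raised Adam10 and Adam15. Of the members, Adam8, Adam9, Adam10, Adam15 and Adam17 were tested for this response, and these 2 of the 5 passed at an edgeR adjusted p under 0.05, both higher, where 15.5% of the 13080 genes tested passed in either direction and 7.87% were higher. Adam15 was the 1 of the 5 whose treated and untreated groups did not overlap, against 23.9% of all genes tested. At an unadjusted p under 0.05 there were 3 of the 5, DESeq2 called 2, and limma called 1. For unadjusted, DESeq2 and limma counts, here and below, no share over all genes is given. They are therefore not read as a result about the genes counted.

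**Figure D2:**
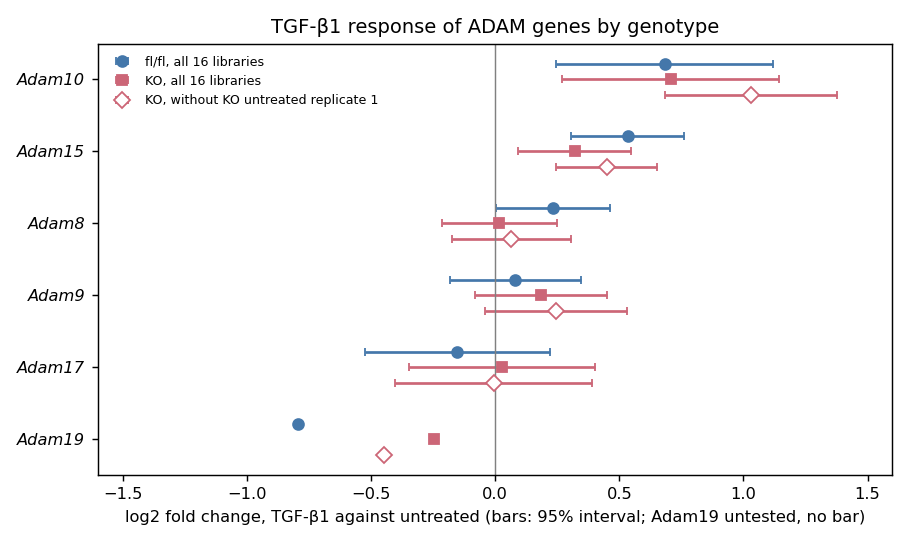
Log2 fold change with TGF-β1 for 6 ADAM genes, with the 95% interval except for Adam19, which was not tested, in fl/fl cells (blue circles), in KO cells (filled red squares) and in KO cells without KO untreated replicate 1 (open red diamonds). Adam10 and Adam15 lie above 0 in each setting, and the interval of Adam10 in KO cells moves from 0.27 to 1.14 up to 0.68 to 1.38 when that library is left out.

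Adam10 encodes the constitutive sheddase that cuts Notch receptors, cadherins and the amyloid precursor protein. Its gene (ENSMUSG00000054693) lies at chr9:70678997-70780229 on the + strand. The fl/fl untreated libraries held 229, 211, 210 and 208 CPM and the fl/fl TGF-β1 libraries 376, 402, 377 and 223 CPM for replicates 1 to 4. Treated replicates 1 to 3 were high and replicate 4, the library with fewer detected genes, lay among the untreated libraries. The means were 214 ± 9.91 and 344 ± 81.8 CPM (SD, n = 4), and the log2 fold change was 0.68 ± 0.21 (SE; 95% interval 0.25 to 1.12, edgeR adjusted p = 0.0323). Without fl/fl TGF-β1 replicate 4 the treated mean was 385 ± 14.8 CPM (SD, n = 3) and the log2 fold change 0.84 (edgeR adjusted p = 0.00884). The call was lost, at an edgeR adjusted p of 0.0702 to 0.0884, when any of the other 7 fl/fl libraries was left out instead.

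In KO cells the call for Adam10 depended on KO untreated replicate 1 and on the fit. With all libraries Adam10 passed with DESeq2 (adjusted p = 0.0174) and limma (adjusted p = 0.0389). In edgeR with replicate number as a block the adjusted p was 0.0462, and without fl/fl TGF-β1 replicate 4 it was 0.0309. Of 25 alternative fits 19 left Adam10 uncalled. The untreated libraries held 386, 167, 220 and 218 CPM and the treated ones 393, 369, 423 and 433 CPM for replicates 1 to 4. KO untreated replicate 1 thus lay within the treated range and the other 3 untreated libraries below it. With all libraries the log2 fold change was 0.71 ± 0.21 (95% interval 0.27 to 1.14), and its edgeR adjusted p of 0.0568 missed the threshold. Without KO untreated replicate 1 it was 1.03 ± 0.16 (95% interval 0.68 to 1.38, edgeR adjusted p = 1.66e-04), from 202 ± 30.3 (SD, n = 3) to 404 ± 29.0 CPM (SD, n = 4). The difference between the KO and the fl/fl response was 0.02 with all libraries (95% interval -0.59 to 0.64) and 0.35 without that library (95% interval -0.11 to 0.81), and neither passed the test, with edgeR adjusted p of 0.998 and 0.982.

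Adam17 encodes the sheddase of tumour necrosis factor and of its receptors. Its gene (ENSMUSG00000052593, chr12:21323509-21373632, −) overlaps Iah1 on the opposite strand, whose counts came to 3.58% of those of Adam17. The kit is not stated to mark strand, so reads in the overlap cannot be assigned. Adam17 was at 583 ± 71.8 and 525 ± 112 CPM in untreated and treated fl/fl cells and at 510 ± 108 and 520 ± 94.5 CPM in untreated and treated KO cells (SD, n = 4). The lowest and highest libraries were at 517 and 656, 373 and 609, 398 and 637, and 400 and 613 CPM in these 4 groups, so all of them overlapped. The TGF-β1 response was -0.15 ± 0.18 in fl/fl (95% interval -0.53 to 0.22, edgeR adjusted p = 0.635), and -0.02 without fl/fl TGF-β1 replicate 4 (edgeR adjusted p = 0.972). In KO cells it was 0.03 ± 0.18 (95% interval -0.35 to 0.40, edgeR adjusted p = 0.98), or -0.01 ± 0.19 when KO untreated replicate 1 was left out (edgeR adjusted p = 0.992).

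The balance of the 2 sheddases was compared within each library as the ratio of Adam10 to Adam17 FPKM, a measure chosen after their values were seen. In fl/fl untreated replicates 1 to 4 the ratio was 0.340, 0.324, 0.394 and 0.384, and with TGF-β1 it was 0.60, 0.642, 0.722 and 0.582. Every treated library lay above every untreated one, replicate 4 included, in which Adam17 was at its lowest level of the group, 373 CPM. The log2 difference was 0.82, with an exact two-sided permutation p of 0.0286 (0.0572 adjusted over the 2 genotypes), the smallest p that 4 against 4 libraries allow. KO untreated libraries held ratios of 0.841, 0.408, 0.384 and 0.334 and KO TGF-β1 libraries 0.957, 0.730, 0.716 and 0.687. KO untreated replicate 1 again lay with the treated libraries, and the log2 difference of 0.74 had an exact two-sided permutation p of 0.114. Without that library the difference was 1.03 and the exact two-sided permutation p 0.0286, unadjusted and the smallest that 3 against 4 libraries allow. Since the ratio was picked from these same values, none of these p-values is read as support for a change.

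**Figure D3:**
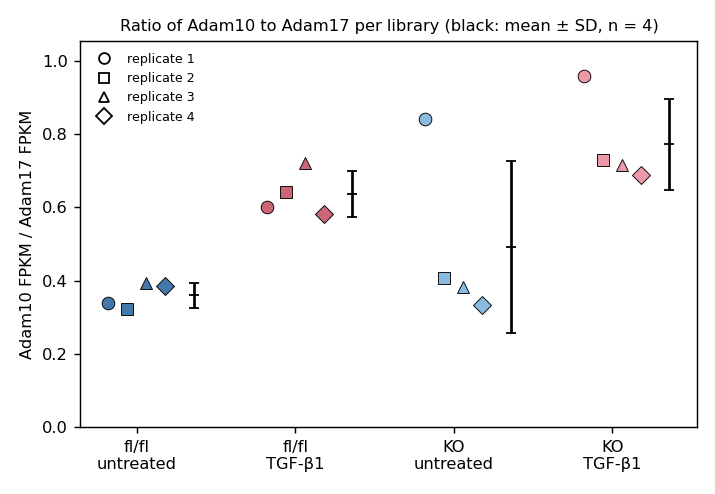
Ratio of Adam10 FPKM to Adam17 FPKM in each library (points, shaped by replicate number), with the mean and SD of the 4 libraries of a group in black and the axis from 0. Untreated libraries lie between 0.324 and 0.408 except KO untreated replicate 1 at 0.841, and treated libraries lie between 0.582 and 0.957.

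Adam15, or metargidin, is found on endothelial, smooth muscle and myeloid cells. Its gene (ENSMUSG00000028041) lies at chr3:89338542-89349996 on the − strand. In fl/fl cells it was at 241, 257, 267 and 271 CPM untreated and at 371, 368, 344 and 417 CPM with TGF-β1 for replicates 1 to 4, without overlap. The means were 259 ± 13.8 and 375 ± 30.7 CPM (SD, n = 4), a log2 fold change of 0.53 ± 0.11 (95% interval 0.31 to 0.76, edgeR adjusted p = 0.00302). It kept this call in every alternative fit that was run, at an adjusted p of 2.34e-04 to 0.0145 in the edgeR fits, 2.1e-05 with DESeq2 and 0.00379 with limma.

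In KO cells the edgeR call for Adam15 also depended on the first untreated library. DESeq2 called Adam15 with all libraries kept (adjusted p = 0.0306), and 22 of 25 alternative fits left it uncalled. The untreated libraries held 305, 258, 229 and 225 CPM and the treated ones 285, 318, 330 and 336 CPM for replicates 1 to 4, so replicate 1 was the highest untreated library and overlapped with the treated ones. The log2 fold change was 0.32 ± 0.11 (95% interval 0.09 to 0.55, edgeR adjusted p = 0.0983), against 0.45 ± 0.10 (95% interval 0.25 to 0.65, edgeR adjusted p = 0.0026) with KO untreated replicate 1 left out. Between genotypes Adam15 was at 254 ± 37.1 CPM in KO and 259 ± 13.8 CPM in fl/fl untreated cells (SD, n = 4). With TGF-β1 all 4 KO libraries lay below all 4 fl/fl libraries, with a log2 difference of -0.24 ± 0.11 (95% interval -0.47 to -0.01), which did not pass (edgeR adjusted p = 0.877).

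In KO cells as a whole, 0 of these 5 tested ADAM genes passed edgeR's threshold for the TGF-β1 response with all libraries, where 5.17% of the genes tested passed. At an unadjusted p under 0.05 there were 2, Adam10 and Adam15, DESeq2 called the same count of 2, and limma called 1. Without KO untreated replicate 1 edgeR called 2, Adam10 and Adam15, both higher, where 15.2% of the genes tested passed and 8.33% were higher. Adam10 and Adam15 then had groups that did not overlap, against 24.2% of the genes tested, while with all libraries 0 of the 5 had, against 6.04%. In fl/fl cells leaving out that library, which enters this comparison through the shared fit and scaling, kept the count at 2 of 5, where 18.1% of the genes tested passed.

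Adam8, the transcript with the highest FPKM of the family here, encodes a sheddase of leukocytes that is induced during inflammation. Its gene (ENSMUSG00000025473) lies at chr7:139978932-139992562 on the − strand. It was at 774, 879, 877 and 960 CPM in fl/fl untreated and at 996, 1090, 899 and 1116 CPM in fl/fl TGF-β1 replicates 1 to 4, and the groups overlapped. The log2 fold change of 0.23 ± 0.11 (95% interval 0.00173 to 0.46) did not pass (edgeR adjusted p = 0.179). In KO cells the means were 833 ± 86.9 CPM without and 843 ± 74.3 CPM with TGF-β1 (SD, n = 4), a log2 fold change of 0.02 ± 0.11 (95% interval -0.21 to 0.25, edgeR adjusted p = 0.98), or 0.07 ± 0.11 when KO untreated replicate 1 was left out (edgeR adjusted p = 0.821). Treated KO cells were lower than treated fl/fl cells by a log2 difference of -0.28 ± 0.11 (95% interval -0.51 to -0.05), which also did not pass (edgeR adjusted p = 0.877).

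Adam9, or meltrin gamma, is a broadly expressed protease with roles in growth factor and receptor shedding. Its gene (ENSMUSG00000031555) lies at chr8:24949611-25016922 on the − strand. It was at 310 ± 9.32 and 328 ± 18.5 CPM in untreated and treated fl/fl cells and at 280 ± 57.3 and 318 ± 23.9 CPM in untreated and treated KO cells (SD, n = 4). KO untreated replicate 2 was low, at 195 CPM, while the other 15 libraries ran from 297 to 349 CPM. Its TGF-β1 responses were 0.08 ± 0.13 in fl/fl (95% interval -0.18 to 0.35, edgeR adjusted p = 0.73) and 0.18 ± 0.13 in KO cells (95% interval -0.08 to 0.45, edgeR adjusted p = 0.529). The KO response without its replicate 1 untreated library was 0.25 ± 0.14 (edgeR adjusted p = 0.297).

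The 5 tested ADAM genes other than Adam19 did not differ between genotypes past the threshold. Without TGF-β1, edgeR called 0 of the 5, where 0.0459% of the genes tested passed, and also 0 at an unadjusted p under 0.05 and 0 with DESeq2 or limma. Their log2 differences ran from -0.19 for Adam17 to 0.21 for Adam10. Without KO untreated replicate 1 that of Adam10 became -0.11 (95% interval -0.45 to 0.23), and the count stayed at 0 of 5, where 0.0994% of the genes tested passed. With TGF-β1, edgeR called 0 of the 5, where 0.0382% of the genes tested passed, DESeq2 and limma called 0, and Adam8 and Adam15 were the 2 at an unadjusted p under 0.05. Leaving out that untreated library, which enters this comparison through the shared fit and scaling, kept the count at 0 of 5, with 0.0612% of the genes tested past the threshold. Apart from Adam19, Adam15 had the other pair of treated groups that did not overlap between genotypes, against 4.61% of the genes tested. For the difference between the 2 TGF-β1 responses edgeR called 0 of the 5 and 0% of the 13080 genes, with or without that library, with 0 of the 5 at an unadjusted p under 0.05 and 0 by DESeq2 or limma. For Adam15 that difference was -0.21 ± 0.15 (95% interval -0.53 to 0.11), and -0.08 (95% interval -0.35 to 0.19) without KO untreated replicate 1. For Adam8 it was -0.22 ± 0.16 (95% interval -0.54 to 0.11), and -0.16 (95% interval -0.49 to 0.16) without that library. Adam19's own difference between responses was 0.55 on the log2 scale, or 0.35 without that library, given without a test.

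Other genes of the ADAM pathway were taken from lists, and 19 of the 50 listed genes that were tested passed in the fl/fl response, against the 15.5% of all genes. The lists were chosen with earlier results of these data known, so no enrichment is read from counts of listed genes, here or below. The listed genes that passed included 1 of 2 convertases and 2 of 7 sheddase partners. Furin, the convertase that removes ADAM prodomains, rose from 315 ± 39.4 to 866 ± 75.7 CPM (SD, n = 4) in fl/fl cells, a log2 fold change of 1.46 ± 0.25 (edgeR adjusted p = 0.00126), and was the 1 of 2 tested convertases that passed. In KO cells it rose by 0.98 ± 0.25 (edgeR adjusted p = 0.0325), and by 1.41 ± 0.18 when KO untreated replicate 1 was left out (edgeR adjusted p = 1.08e-05). Of 7 tested sheddase partners 2 rose and none fell. Tspan14, a tetraspanin that escorts ADAM10 from the endoplasmic reticulum, rose by 1.12 ± 0.19 in fl/fl cells (98.4 ± 9.96 to 213 ± 16.5 CPM, SD, n = 4, edgeR adjusted p = 0.00108). It also passed in KO cells, at 0.72 ± 0.19 with all libraries (edgeR adjusted p = 0.0348) and 1.06 ± 0.12 without replicate 1 (edgeR adjusted p = 3.82e-06). Rhbdf2, or iRhom2, which carries ADAM17 to the surface in myeloid cells, rose by 0.57 ± 0.12 (96.6 ± 15.3 to 144 ± 13.7 CPM, SD, n = 4, edgeR adjusted p = 0.00438), and in KO cells its log2 fold change was 0.34 ± 0.12 with all libraries (edgeR adjusted p = 0.135) and 0.46 ± 0.12 without replicate 1 (edgeR adjusted p = 0.0138). Of the 2 tested inhibitors none passed, and Timp2 was at 217 ± 4.02 and 235 ± 21.4 CPM in untreated and treated fl/fl cells (SD, n = 4).

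Most further ADAM genes were too low to test. Of 27 listed, 4 were tested, and in fl/fl cells Adam33 rose from 9.67 ± 2.50 to 18.1 ± 3.60 CPM (SD, n = 4; log2 fold change 0.91 ± 0.21, edgeR adjusted p = 0.00671). In KO cells its log2 fold change was 0.34 ± 0.21 (edgeR adjusted p = 0.458), or 0.33 ± 0.23 without KO untreated replicate 1 (edgeR adjusted p = 0.441). The difference between the KO and the fl/fl response of Adam33 was -0.57 ± 0.30 and did not pass (edgeR adjusted p = 0.993, or 0.982 without that library). Adam22, which lacks a catalytic site and binds LGI proteins, fell from 11.7 ± 3.93 to 3.89 ± 0.664 CPM (SD, n = 4; log2 fold change -1.59 ± 0.29, edgeR adjusted p = 0.00176), and fell in KO cells by 1.22 on the log2 scale (edgeR adjusted p = 0.0243). That change was -1.32 ± 0.30 with KO untreated replicate 1 left out (edgeR adjusted p = 0.00416). Of 5 tested genes of the secreted ADAMTS proteases 1 passed, Adamts10, which rose by 0.72 ± 0.19 (edgeR adjusted p = 0.0169).

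Known substrates of ADAM proteases moved in both directions. In fl/fl cells 7 of 30 tested substrates rose and 6 fell, with a median log2 fold change of 0.09 against -0.01 over all genes tested. Over all genes 15.5% passed in either direction and 7.87% were higher. As the substrates were listed with earlier results known, no enrichment is read from these counts. Among cytokines and chemokines (1 higher and 1 lower of 5), Cxcl16 rose from 121 ± 17.4 to 300.0 ± 34.9 CPM (SD, n = 4; log2 fold change 1.31 ± 0.22, edgeR adjusted p = 0.00112) and Csf1 fell by 0.75 on the log2 scale (edgeR adjusted p = 0.0479). Among 12 receptors 5 rose and 3 fell. Notch1 rose from 135 ± 14.7 to 410 ± 26.2 CPM (SD, n = 4; log2 fold change 1.61 ± 0.30, edgeR adjusted p = 0.00208) and the TGF-β receptor gene Tgfbr1 rose by 1.69 ± 0.44 (edgeR adjusted p = 0.0167). Notch2, the more abundant Notch receptor gene in untreated fl/fl cells, fell from 667 ± 106 to 364 ± 51.1 CPM (log2 fold change -0.87 ± 0.16, edgeR adjusted p = 0.00149). Cd163, the haemoglobin scavenger receptor of macrophages, fell from 21.8 ± 2.57 to 3.59 ± 1.15 CPM (SD, n = 4; log2 fold change -2.60 ± 0.37, edgeR adjusted p = 6.97e-04). Among 8 adhesion molecules 1 rose, the junctional protein gene F11r, from 10.8 ± 0.782 to 85.6 ± 3.19 CPM (log2 fold change 2.99 ± 0.56, edgeR adjusted p = 0.00278), and 1 fell, Alcam, by 0.78 on the log2 scale (edgeR adjusted p = 0.00298). Of 2 tested growth factor ligands of the EGF family Nrg2 fell by 2.07 on the log2 scale (edgeR adjusted p = 0.002), and of 3 amyloid and prion genes none passed, App being at 1245 ± 51.4 and 1308 ± 75.9 CPM in untreated and treated fl/fl cells (SD, n = 4).

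In KO cells 2 of the 30 substrates rose and 3 fell with all libraries (median log2 fold change -0.03, also -0.03 over all genes tested), where 5.17% of all genes passed in either direction. Without KO untreated replicate 1, 7 rose and 8 fell (median -0.04, against -0.01 over all genes tested), where 15.2% of all genes passed. F11r had a log2 fold change of 1.73 ± 0.53 with that library (edgeR adjusted p = 0.0769) and of 3.11 ± 0.16 without it (edgeR adjusted p = 2.54e-10), and Notch1 of 0.98 ± 0.29 (edgeR adjusted p = 0.0636) and 1.63 ± 0.11 (edgeR adjusted p = 8.06e-09). Notch2 was at -0.61 ± 0.16 with that library (edgeR adjusted p = 0.0333) and at -0.70 ± 0.14 without it (edgeR adjusted p = 0.00151). Between genotypes edgeR called 0 of the 50 listed genes in either treatment, with and without that library, and DESeq2 and limma called 0. Over all genes edgeR called 0.0459% without and 0.0382% with TGF-β1. At an unadjusted p under 0.05 there were 9 of 50 without and 1 of 50 with TGF-β1. The share of all genes at that unadjusted threshold is not given, so nothing is read from these counts.

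**Figure D4:**
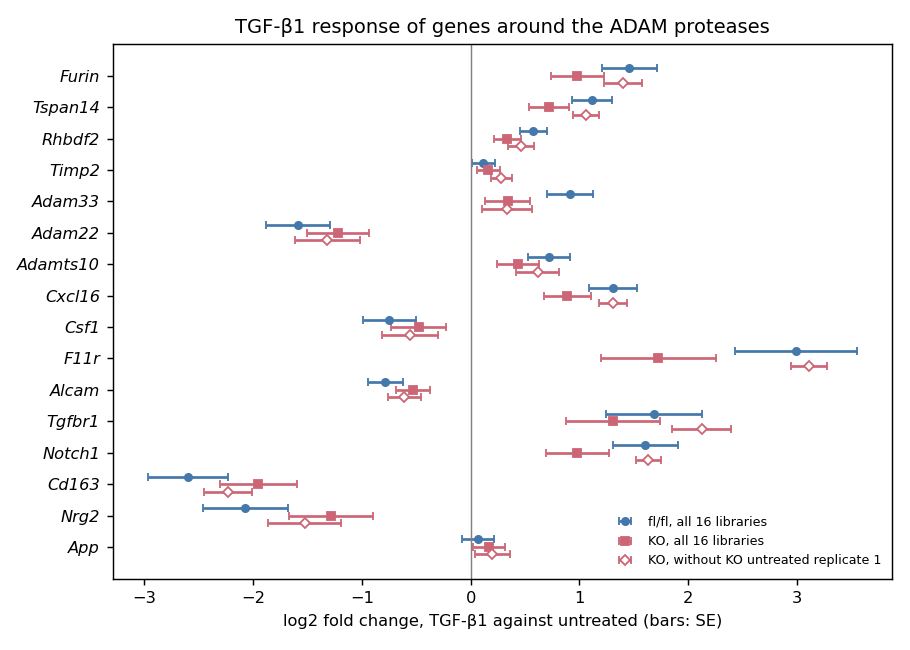
Log2 fold change with TGF-β1 and its SE for the named genes of the ADAM pathway other than Notch2, from the convertase Furin at the top to the substrate App at the bottom, in fl/fl cells (blue circles), KO cells (filled red squares) and KO cells without KO untreated replicate 1 (open red diamonds). Furin, Tspan14, Cxcl16 and Notch1 lie above 0 and Adam22, Cd163 and Nrg2 below 0 in all settings, and F11r moves from 1.73 to 3.11 in KO cells when that library is left out.

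The promoters of the 2 genes that rose and of Adam19 are shown so that their Smad-binding letters can be compared. They are the 250 bases before the RefSeq start (GRCm38.p6), 5′ to 3′ on the gene's strand, with each CAGAC, a short element that Smad proteins can bind, in capitals. They lie at chr11:46055734-46055983 (+) for Adam19, chr9:70678732-70678981 (+) for Adam10 and chr3:89350029-89350278 (−) for Adam15. RefSeq lists 3 starts for Adam19 and the sequence is that of the start nearest to the deposited gene's first base.
Adam19: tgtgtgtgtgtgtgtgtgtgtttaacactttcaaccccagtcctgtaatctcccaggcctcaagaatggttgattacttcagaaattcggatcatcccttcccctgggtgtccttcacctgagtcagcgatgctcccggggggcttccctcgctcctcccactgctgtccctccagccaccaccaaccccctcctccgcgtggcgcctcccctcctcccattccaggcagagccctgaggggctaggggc
Adam10: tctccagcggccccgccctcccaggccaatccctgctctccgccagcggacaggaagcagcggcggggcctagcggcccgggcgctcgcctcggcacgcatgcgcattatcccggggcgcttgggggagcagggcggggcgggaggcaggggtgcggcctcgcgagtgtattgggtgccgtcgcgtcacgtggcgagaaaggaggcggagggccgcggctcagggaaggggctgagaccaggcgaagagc
Adam15: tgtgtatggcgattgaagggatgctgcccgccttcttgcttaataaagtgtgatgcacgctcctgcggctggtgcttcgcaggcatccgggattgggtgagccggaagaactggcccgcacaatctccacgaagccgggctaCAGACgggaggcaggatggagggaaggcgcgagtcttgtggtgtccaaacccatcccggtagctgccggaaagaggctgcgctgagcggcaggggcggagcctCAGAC
CAGAC or its reverse complement GTCTG was found in 42.2% of 32851 RefSeq promoters of the same length. The Adam15 promoter held 2 matches, 108 and 5 bases before the start, and the promoters of Adam19 and Adam10 held none. Of the other matched members, Adam8 held 2 and Adam17 none, and Adam9 and Adam12 had no entry. The palindrome GTCTAGAC was in none of the 5 and in 0.167% of all promoters. The GC content was 60.0% for Adam19, 74.0% for Adam10 and 62.0% for Adam15. A match describes these letters and not a binding site.

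Across the 16 libraries the genes whose log2 CPM was most like that of Adam19 were Mtss1 (Pearson r = 0.926), Arid3a (0.925), Mfsd12 (0.923), Mocos (0.905) and Sept8 (0.905), of the 13080 tested. Over the 15 libraries without KO untreated replicate 1, Arid3a (0.928), Mtss1 (0.911), Mfsd12 (0.906) and Sept8 (0.904) were again among the first 5, with the pseudogene Gm3608 (0.891). The libraries share the 4 groups, so these values describe a common order of group levels. Mtss1, which encodes an actin-binding membrane-curving protein, was at 168 ± 9.75 and 133 ± 3.92 CPM in untreated and treated fl/fl cells and at 119 ± 28.7 and 115 ± 6.82 CPM in untreated and treated KO cells (SD, n = 4). Gm3608 was at 62.4 ± 3.31 and 47.3 ± 13.1 CPM in fl/fl and at 3.96 ± 0.565 and 3.69 ± 0.508 CPM in KO cells (SD, n = 4). As a pseudogene it may share reads with other copies, so its level is uncertain. None of the other ADAM genes followed Adam19 closely over the 16 libraries: Pearson r was 0.398 for Adam9, 0.386 for Adam17, 0.225 for Adam8, -0.04 for Adam15 and -0.40 for Adam10.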

How the data were processed

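RNA was measured in 16 libraries, and groups were taken from the labels. The submitters' processing notes name HTSeq 0.6.1, Cufflinks 2.1.1 and TopHat2 2.0.9, with the builds mm10 and GRCm38.p6; roles, counting options and strand are not given in the sources used here. The deposited raw read count table and the deposited FPKM table were used; all FPKM equalled count over gene length and library total within 0.1%. Counts were scaled by TMM and filtered with filterByExpr in edgeR 4.0.16 (R 4.3.3). A single quasi-likelihood model with robust estimation and a mean per group was fitted to the 16 libraries, with Benjamini-Hochberg adjustment over 13080 genes and a threshold of 0.05. It was run on simulated data with the same dispersion for every gene and no departing library. The changes planted there were larger than those of Adam10 and Adam15 in fl/fl cells, so changes of that size were not covered. Adjusted p-values are edgeR's unless another tool is named. Tests of the TGF-β1 response of Adam19 were planned but are not given, because they share libraries with the genotype difference that chose it. Correlations used log2 CPM with a prior count of 2. Alternatives were DESeq2 1.42.0, limma 3.58.1 on log2(FPKM + 0.1), other scalings and filters, a replicate block and leaving out each library. Same-numbered untreated and treated fl/fl libraries deviated together (correlations 0.162, 0.173, 0.123 and 0.181), which the labels do not explain; the KO pairs did so less evenly (0.075 to 0.239). The 95% intervals cover the spread between libraries, and the limit of 3 counts covers counting error only, since reads carry no molecular identifiers. No 2 libraries held identical values. The extraction protocol speaks of fewer cDNA libraries than the labels list, and nothing in the labels resolves this. The members, gene lists and the rule for named genes (each list's up to 3 passing genes with the largest change in the fl/fl response, or its most abundant gene) were chosen with earlier results of these data known. Notch2 was named outside this rule, beside Notch1. Sequences come from GENCODE M21 and RefSeq; 5 of 7 promoters were matched.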

Additional observations from a re-analysis of the deposited data

Results flagged for a closer look

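Of 24 sets of 4 libraries (6 ADAM genes in 4 groups), 3 held a library far from the other 3 by Dixon's criterion, and chance gives about 1 such set in 20. Adam9 was at 195 CPM in KO untreated replicate 2, against 300.3 to 319.6 CPM in the other 3. Adam10 was at 223 CPM in fl/fl TGF-β1 replicate 4, against 375.7 to 401.8 CPM in the other 3, and at 229 CPM in fl/fl untreated replicate 1, against 207.7 to 211.2 CPM. The Adam10 value in fl/fl TGF-β1 replicate 4 stands in the library with the fewest detected genes (14915), whose part in it was not tested.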

How the results depend on the processing

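Values between libraries are limited by 4 libraries a group, and Adam19 rests on 73 to 884 counts per library. Alternatives were run 1 at a time; 2 (both doubtful libraries left out together, and the block within 8 libraries) were chosen after seeing the data. For the fl/fl response, 2 of 5 ADAM genes passed, and 1 did at an adjusted p under 0.01, with no filter on low counts, or with limma on log2 FPKM; leaving out 1 library gave 1 to 2. For the KO response 0 passed, against 2 with DESeq2, 1 with limma, 1 with the replicate block (Adam10), 2 without KO untreated replicate 1 and fl/fl TGF-β1 replicate 4 together, and 0 to 2 on leaving out 1 library (1 without fl/fl TGF-β1 replicate 4, 2 without KO untreated replicate 1). The replicate block gave 2 for the fl/fl response and changed no call besides that of Adam10 in KO cells. By the labels the libraries of a pair share a number only, in fl/fl and KO cells alike, and own numbers matched best in 4 of the 16 pairs examined. All 4 paired untreated with treated libraries, namely replicates 2 and 4 in fl/fl and 3 and 4 in KO cells. Same-numbered libraries of different genotypes had correlations of -0.175 to -0.0219. Genotype and interaction counts stayed at 0 in every alternative run. Adam10 in fl/fl cells missed the threshold with no filter (edgeR adjusted p = 0.0534) and with limma (adjusted p = 0.0547). Of 726 alternative values for 30 gene results, 676 kept direction and, where tested, side of the threshold and 32 changed sign, none of them past the threshold; the cause was not tested. With library totals alone the log2 values turned to -0.0126 (Adam8) and -0.00454 (Adam17) for the KO response, 0.0138 for Adam15 between untreated genotypes, and 0.0188 (Adam9) and 0.0492 (Adam17) between treated genotypes. With limma they turned to -0.00766 (Adam8, KO response), 0.00359 (Adam15, untreated genotypes), 0.0193 (Adam9) and 0.0612 (Adam17, treated genotypes). With both doubtful libraries out they turned to -0.031 (Adam17, KO response), -0.0877 (Adam10, untreated genotypes) and -0.0113 (Adam17, interaction). On leaving out 1 library the KO response ran from -0.45 to 0.0499 for Adam19, -0.0354 to 0.0900 for Adam8 and -0.0636 to 0.17 for Adam17. The untreated genotype difference ran from -0.11 to 0.36 for Adam10 and -0.15 to 0.0165 for Adam15, the treated one from -0.15 to 0.0974 for Adam17, and the interaction from -0.0223 to 0.19 for Adam9 and -0.14 to 0.35 for Adam10.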

Other observations

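The genes next to Adam19 were examined within 1 Mb on either side, a window chosen after Adam19's values were seen. Of 9 tested neighbours, edgeR called 0 between genotypes without TGF-β1 (log2 differences of -0.68 to 0.70, with 2 at an unadjusted p under 0.05) and 0 with it (-0.54 to 0.30, with 0 at an unadjusted p under 0.05), and DESeq2 and limma called 0 in both. Over all genes edgeR called 0.0459% and 0.0382%. The highest value without TGF-β1, 0.70, was that of Havcr2, which was at -0.17 without KO untreated replicate 1. Without that library the 9 ran from -0.67 to 0.82, with 0 called and 1 at an unadjusted p under 0.05. The neighbour with the lowest value was Cyfip2, an actin regulator, at -0.68 ± 0.19 without TGF-β1 (edgeR adjusted p = 0.342). Havcr2, which encodes the inhibitory receptor TIM-3, was the neighbour that responded to TGF-β1 in fl/fl cells, by 1.81 ± 0.42 on the log2 scale (edgeR adjusted p = 0.00866), and in KO cells by 1.24 (edgeR adjusted p = 0.0991), or 2.12 without KO untreated replicate 1 (edgeR adjusted p = 3.13e-07).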
